A study of Mus musculus with 15 samples.

Results

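The 10 genes described here encode receptors and membrane anchors of selective autophagy. Sqstm1, Nbr1, Tax1bp1 and Optn bind ubiquitin-tagged cargo, Bnip3 and Bnip3l are receptors on the outer mitochondrial membrane, Pink1 is the kinase that marks damaged mitochondria, and Map1lc3a, Map1lc3b and Gabarapl1 are ATG8 proteins of the autophagosome membrane. The genes were chosen by name, with earlier results of these data known. The FPKM (fragments scaled to transcript length and library depth) of their annotated transcripts was summed per gene. All 10 were measured in all 15 libraries and passed the filter on low values, among 12391 genes measured and 12267 tested. Heart RNA of male C57BL/6 mice was sequenced in 3 groups of 5 libraries: mice given both AngII and QDG (AngII+QDG), mice given AngII alone (AngII) and control mice (Control). AngII is angiotensin II, the pressor peptide of the renin-angiotensin system, and the series title calls the mice AngII infused. The labels do not spell out QDG, and doses, durations, ages and any treatment of the control mice were not given in the sources used here. Every group shared the strain, the sex and the tissue.

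Autophagy encloses cytoplasm in a membrane that fuses with the lysosome, where the contents are broken down. In its selective forms a receptor holds the cargo with a ubiquitin-binding or membrane-anchored part and grips ATG8 proteins on the growing membrane with a short LC3-interacting motif. When a mitochondrion loses its membrane potential, PINK1 builds up on its surface, phosphorylates ubiquitin and activates parkin, and optineurin and related receptors then gather there, whereas BNIP3 and its relative BNIP3L (NIX) act without ubiquitin. In the heart, a tissue dense with mitochondria, both routes are known for the turnover of mitochondria.

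The libraries held 51600000 to 78300000 fragments by estimates from the spacing of low FPKM values, with group means of 63100000 ± 11500000 in AngII+QDG, 68000000 ± 9260000 in AngII and 69100000 ± 3540000 in Control (SD, n = 5 each). The Control libraries stood apart in composition. Protein-coding transcripts under 1000 nt exceeded those of 3000 nt or more by a mean log2 difference of 0.81 ± 0.10 in AngII+QDG, 0.84 ± 0.07 in AngII and 1.20 ± 0.18 in Control (exact permutation test of 252 arrangements, two-sided, p = 0.00794 for each treated group against Control, the smallest it allows; adjusted p = 0.0238 over 9 tests of library measures). This difference is called the short-transcript balance below, and it was highest in Control 3, at 1.4, and in Control 5, at 1.36. Transcripts listed at 0 FPKM made up 5.35 ± 0.76% of the files of AngII+QDG, 4.80 ± 0.88% of those of AngII and 11.4 ± 5.26% of those of Control, and the share was highest in Control 5. Heart muscle markers were present in every library: the summed FPKM of Myh6, Tnnt2, Actc1, Ryr2 and Pln ranged from 8642 to 20791 in AngII+QDG, from 13029 to 16540 in AngII and from 11191 to 18931 in Control. Summed markers of other cells differed in median between the groups, in no common direction. The summed FPKM of 5 fibroblast markers had a median of 259 in AngII+QDG (213 to 326), 225 in AngII (208 to 326) and 193 in Control (190 to 247). That of 5 endothelial markers had medians of 153 FPKM in AngII+QDG, 153 FPKM in AngII and 129 FPKM in Control. That of 3 erythrocyte markers, haemoglobin transcripts among them, had medians of 3225 FPKM in AngII+QDG (1900 to 7270), 4024 FPKM in AngII (1404 to 5693) and 5615 FPKM in Control (2406 to 9051). The macrophage sum (5 markers) had medians of 185 FPKM in AngII+QDG, 194 FPKM in AngII and 225 FPKM in Control. For 5 smooth muscle and pericyte markers the medians were 175, 178 and 155 FPKM. Dcn made up most of the fibroblast sum, with a median of 170 FPKM in Control. Of the endothelial markers, Tie1 was highest in Control by median (29.0 FPKM, 15.6 in AngII+QDG, 18.9 in AngII). Pecam1, Cdh5, Kdr and Egfl7 were lowest there. The groups overlapped in each of these sums, and their part in the results below was not tested. None of the 4 T cell markers was listed in the files.

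The genes spanned a wide range of levels, given here as FPKM, which is per length and so comparable between genes. Map1lc3a was the highest, with a mean of 677 FPKM over the 15 libraries and rank 85 of 12267 tested genes, followed by Pink1 with 285 FPKM and rank 230. The ranges of these 2 genes, by FPKM summed over transcripts, overlapped neither each other nor that of any lower member. By group mean, 62.4 to 71.7% of the Map1lc3a sum was Map1lc3a-203, a transcript with no reading frame. The coding Map1lc3a-201 averaged 198 FPKM in AngII+QDG, 230 in AngII and 231 in Control. Pink1-201 averaged more, with 282, 269 and 300 FPKM, and over all libraries the ranges of these 2 transcripts overlapped. Bnip3 (94.3 FPKM), Sqstm1 (79.2), Map1lc3b (59.6) and Gabarapl1 (54.4) came next, and the ranges of neighbours in that order overlapped. Optn (18.7 FPKM), Tax1bp1 (16.4), Bnip3l (14.2) and Nbr1 (12.4) formed the lowest level, with overlapping ranges, and even Nbr1 lay above 75.9% of tested genes. Over all libraries the highest value was 1.5 times the lowest for Bnip3l and 1.52 times for Pink1, against 6.07 times for Sqstm1 and 14.2 times for Nbr1.

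**Figure D1:**
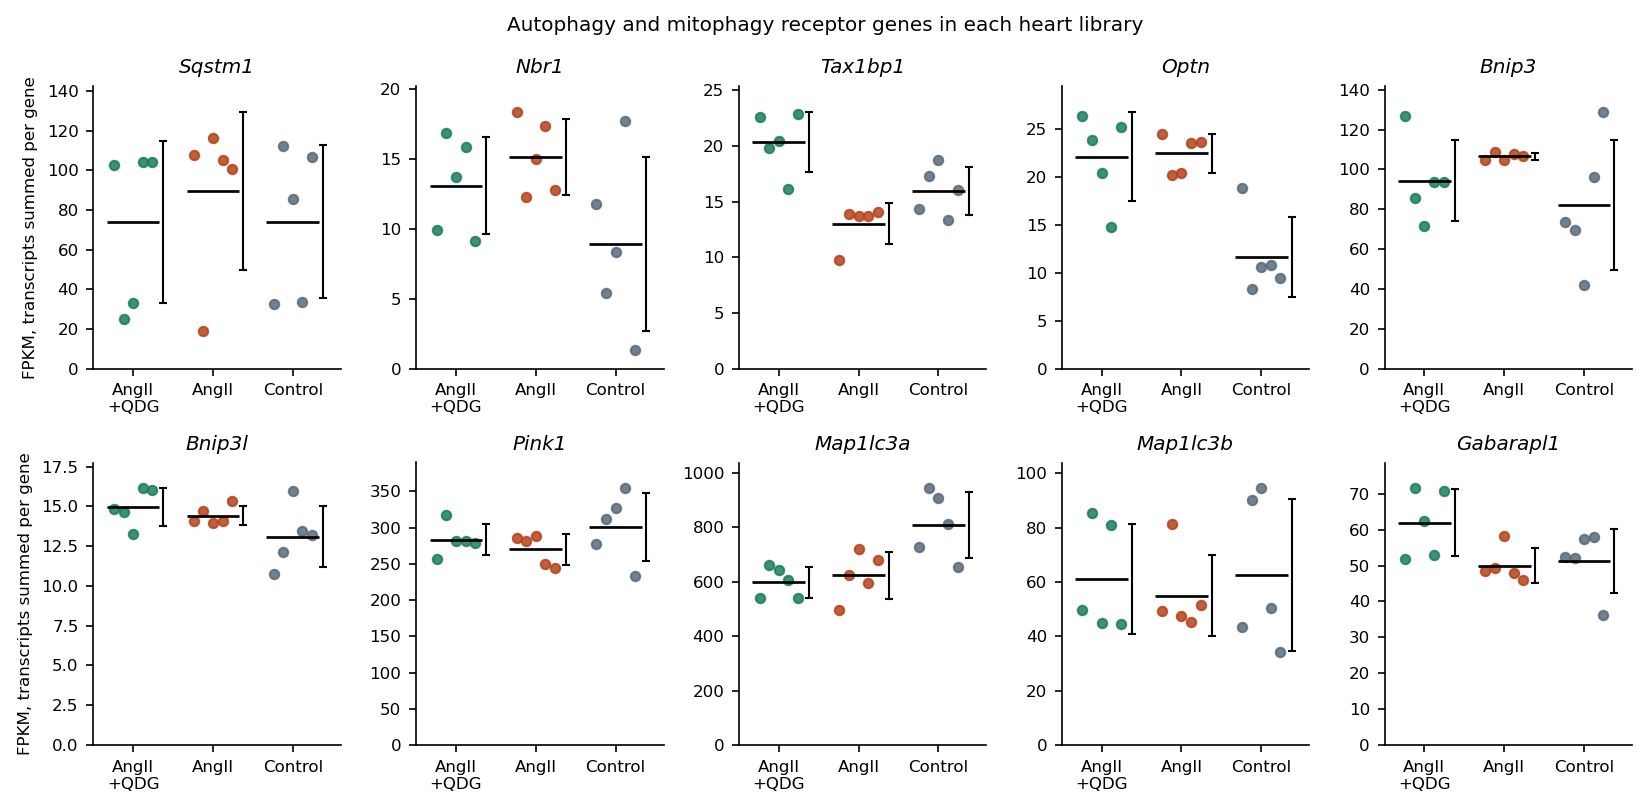
FPKM of each receptor gene in each library (points), with group means (lines) and SD (bars, n = 5), for AngII+QDG, AngII and Control from left to right. Optn was higher in every AngII library than in any Control library, Tax1bp1 was higher in every AngII+QDG library than in any AngII library, and Sqstm1 and Map1lc3b split into high and low libraries inside each group.

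The first question was which of these transcripts differed between AngII hearts and control hearts. Optn, whose product optineurin links ubiquitin to ATG8 proteins and is a main receptor in PINK1 and parkin mitophagy, was the 1 of 10 genes that rose, and none fell, where 13.4% of all tested genes were called (limma with Benjamini-Hochberg adjusted p under 0.05). Of the 12267 tested genes 11.9% were called higher (1457) and 1.48% lower (181), a split that was 406 and 413 with quantile normalization and 361 and 715 with median scaling. The other 9 members did not pass: 4 had positive and 5 had negative log2 fold changes. At an unadjusted p under 0.05 stood 3 of the 10 (Optn, Nbr1 and Map1lc3a), where 31.5% of all tested genes did. The median log2 fold change was 0.06 over the 10 genes and 0.20 over all tested genes, so values near zero lay below the typical gene. In these bulk samples fewer cells of a type and less RNA per cell cannot be told apart.

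With QDG added to AngII, none of the 10 genes and 0% of all tested genes passed the same test against AngII alone. At an unadjusted p under 0.05 stood 2 of the 10 genes, Tax1bp1 and Gabarapl1, and 4.71% of all tested genes (578), and the smallest adjusted p of any gene was 0.173. Limma voom on fragments recovered from the FPKM called 1 gene, which was not a member. Against Control, AngII+QDG hearts had Optn higher and Map1lc3a lower, 2 of the 10 genes, where 19.4% of all tested genes were called (2374, with 16% higher and 3.31% lower). With quantile normalization 983 genes were higher and 999 lower, and with median scaling 791 and 1625. An unadjusted p under 0.05 was reached there by 3 of the 10 genes (Optn, Map1lc3a and Tax1bp1) and by 33.9% of all tested genes. The AngII libraries enter the first and second comparison and the Control libraries enter the first and the third, so similar values in them are not independent.

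**Figure D2:**
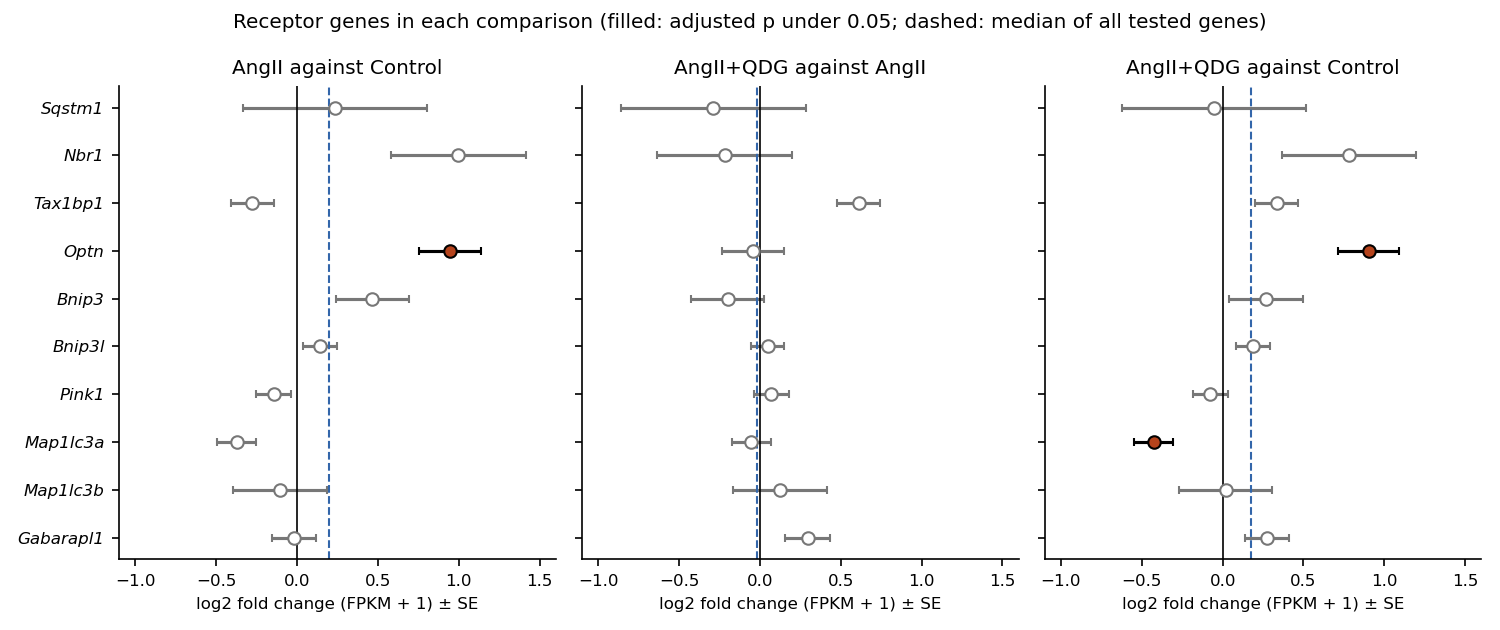
Log2 fold change of FPKM + 1 with its SE for each receptor gene in the 3 comparisons. Filled points passed an adjusted p under 0.05 (Optn in both comparisons with Control, Map1lc3a in AngII+QDG against Control), and the dashed line marks the median of all tested genes.

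Optn (ENSMUSG00000026672, chr2:5020642-5064051, minus strand, GRCm38) had 26.4, 23.9, 20.4, 14.8 and 25.2 FPKM in the AngII+QDG libraries. It had 24.5, 20.1, 20.4, 23.5 and 23.7 FPKM in the AngII libraries, against 18.8, 8.34, 10.6, 10.8 and 9.43 FPKM in the Control libraries. Every AngII library was above every Control library, whereas AngII+QDG 4, at 14.8 FPKM, was below Control 1. The groups did not overlap between AngII and Control for 1 of the 10 genes, Optn, and for 11.1% of all tested genes. Group means were 22.1 ± 4.68 FPKM in AngII+QDG, 22.5 ± 2.02 in AngII and 11.6 ± 4.17 in Control (SD, n = 5 each).

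Optn rose in AngII hearts by 0.95 ± 0.19 on the log2(FPKM + 1) scale against Control (fold 1.93, limma adjusted p = 0.0144), which was 0.75 above the median of all genes. In AngII+QDG hearts it rose by 0.90 ± 0.19 (fold 1.87, limma adjusted p = 0.00728), and between AngII+QDG and AngII it differed by -0.04 ± 0.19 (limma adjusted p = 0.998). The call in AngII against Control was lost when the length trend of each library was removed (log2 fold change 0.74, adjusted p = 0.0576), without Control 3 and Control 5 (0.85, adjusted p = 0.0685), and when the fit was adjusted for the short-transcript balance, where the log2 fold change was 0.60 and the adjusted p 0.909. That adjustment also ended the AngII+QDG call (log2 fold change 0.52, adjusted p = 0.698) and left 0 genes called in either comparison with Control. The balance of every treated library was below that of every Control library, so composition and treatment cannot be told apart.

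Of 4 listed Optn transcripts, the protein-coding Optn-202 (2614 nt) carried the difference. It had 22.5, 18.3, 17.5, 11.6 and 19.2 FPKM in AngII+QDG, 19.6, 16.1, 17.3, 18.0 and 19.1 FPKM in AngII, and 14.3, 0.582, 8.20, 4.06 and 5.01 FPKM in Control. Control 1 was the highest Control library and lay within the AngII+QDG range. In the fit of 21550 transcripts Optn-202 rose by 1.70 ± 0.43 in AngII against Control (limma adjusted p = 0.0464; 3.47% of all transcripts called) and by 1.66 ± 0.43 in AngII+QDG against Control (limma adjusted p = 0.0315; 9.01% called). Optn-201 (2411 nt), which has no exon base of its own beside Optn-202 and encodes a reading frame of the same length, 1752 nt, averaged 3.49 ± 1.21 FPKM in AngII+QDG, 3.11 ± 0.82 in AngII and 4.2 ± 1.57 in Control. It did not pass in either comparison with Control (log2 fold change -0.31 and limma adjusted p = 0.462 for AngII, -0.20 and 0.649 for AngII+QDG). Optn-202 made up 80.4 ± 4.66% of the gene's FPKM in AngII+QDG, 80.4 ± 2.89% in AngII and 50.2 ± 29.2% in Control, and how reads were divided between the 2 nearly identical transcripts bears on these shares.

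The 250 bases before the RefSeq start of Optn (chr2:5064118-5064367, minus strand, GRCm38.p6) are shown because Optn was the member that rose. They were searched on both strands for CACGTG (the E-box that TFEB and related factors can bind), ACGTG (the core of hypoxia response elements, which also lies within the E-box), GTAAACA (a forkhead motif) and TGACNNNGC (the core of antioxidant response elements). No match was found in this window, and these letters occur in 6.02%, 16.6%, 3.17% and 10.2% of 32851 RefSeq promoters of the same length.
Optn promoter: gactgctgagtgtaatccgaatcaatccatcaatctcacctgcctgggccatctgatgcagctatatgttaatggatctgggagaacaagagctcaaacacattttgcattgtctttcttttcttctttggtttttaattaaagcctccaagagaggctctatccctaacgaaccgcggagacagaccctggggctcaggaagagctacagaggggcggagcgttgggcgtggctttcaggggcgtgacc

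Tax1bp1 (ENSMUSG00000004535, chr6:52713729-52766780, plus strand) encodes a ubiquitin-binding receptor of the CALCOCO family that is known for the clearance of protein aggregates. It had 22.6, 19.8, 20.5, 16.2 and 22.8 FPKM in AngII+QDG and 9.71, 13.8, 13.7, 13.7 and 14.1 FPKM in AngII. It had 14.4, 17.3, 18.7, 13.3 and 16.1 FPKM in Control, between the other groups on average. The lowest AngII+QDG library, at 16.2 FPKM, was above the highest AngII library, at 14.1 FPKM, and Control overlapped both groups. Between AngII+QDG and AngII, the libraries did not overlap for 1 of the 10 genes, Tax1bp1, and for 1.39% of all tested genes.

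Tax1bp1 averaged 20.4 ± 2.70 FPKM in AngII+QDG, 13.0 ± 1.85 in AngII and 15.9 ± 2.17 in Control (SD, n = 5 each). The log2 fold change of AngII+QDG against AngII was 0.61 ± 0.13 (fold 1.53), with an unadjusted p of 0.000334 and a limma adjusted p of 0.512, so it did not pass the test over all genes. Over 29 alternative settings the log2 fold change stayed between 0.50 and 0.69 and the adjusted p between 0.173 and 0.954. Against Control the log2 fold change was -0.28 ± 0.13 in AngII (limma adjusted p = 0.165) and 0.34 ± 0.13 in AngII+QDG (limma adjusted p = 0.0885). A single transcript, Tax1bp1-201 (3285 nt), was listed, and none of its 50-mers occurs in another annotated gene.

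RefSeq gives Tax1bp1 a pair of starts, whose upstream stretches are shown because this gene separated AngII+QDG from AngII. The first (chr6:52713479-52713728, plus strand) ends 1 base before the annotated start of the gene and held none of the 4 motifs. The second (chr6:52713915-52714164, plus strand) lies in the first intron of Tax1bp1-201 and held TGACNNNGC at 205 to 197 bases and ACGTG at 155 to 151 bases before the start, in capitals.
Tax1bp1 promoter, first start: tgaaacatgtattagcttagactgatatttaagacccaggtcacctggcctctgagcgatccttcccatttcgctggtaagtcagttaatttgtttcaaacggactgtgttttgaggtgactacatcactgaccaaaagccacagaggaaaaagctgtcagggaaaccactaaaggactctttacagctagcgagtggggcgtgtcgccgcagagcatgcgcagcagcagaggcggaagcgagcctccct
Tax1bp1 promoter, second start: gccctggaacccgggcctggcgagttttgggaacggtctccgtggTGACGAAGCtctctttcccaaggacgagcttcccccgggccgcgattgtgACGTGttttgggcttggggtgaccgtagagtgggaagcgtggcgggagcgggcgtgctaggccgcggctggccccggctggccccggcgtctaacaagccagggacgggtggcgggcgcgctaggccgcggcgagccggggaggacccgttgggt

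Sqstm1 (ENSMUSG00000015837, chr11:50199366-50210827, minus strand) encodes p62, the receptor that gathers ubiquitinated proteins into condensates and is itself degraded with them. It had 102, 25.1, 33.3, 104 and 104 FPKM in AngII+QDG, 108, 19.1, 116, 105 and 101 FPKM in AngII, and 32.6, 112, 85.7, 33.8 and 107 FPKM in Control. Each group held both a high and a low set of libraries: AngII+QDG 2 and 3, AngII 2 and Control 1 and 4 lay at 33.8 FPKM or below, and the other 10 libraries at 85.7 FPKM or above. No Sqstm1 difference passed, with log2 fold changes of 0.23 ± 0.57 in AngII against Control (limma adjusted p = 0.808), -0.29 ± 0.57 in AngII+QDG against AngII (0.998) and -0.05 ± 0.57 in AngII+QDG against Control (0.957).

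The split lay in the protein-coding Sqstm1-202 (2037 nt), which had 9.11 to 19.3 FPKM in those 5 libraries and 80.8 to 111 FPKM in the other 10. How reads were divided among transcripts bears on this split. Assembled transcripts without an Ensembl name were left out of the gene sums, and their part in it was not tested. Sqstm1-201 (2673 nt), which shares 1887 nt with Sqstm1-202 and has 786 nt of its own, showed another order. It had 14.9, 14.8, 22.3, 22 and 14.7 FPKM in AngII+QDG, 4.44, 9.56, 5.07, 4.39 and 5.04 FPKM in AngII, and 11.8, 23.1, 3.35, 23.2 and 20.4 FPKM in Control. All AngII+QDG libraries were above all AngII libraries, while Control spanned both. The share of all transcripts kept apart in this way was not counted. Among tested genes it was 1.39%. The log2 fold change of Sqstm1-201 was 1.51 ± 0.40 in AngII+QDG against AngII (limma adjusted p = 0.660; 0% of transcripts called) and -1.19 ± 0.40 in AngII against Control (limma adjusted p = 0.0952).

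Nbr1 (ENSMUSG00000017119, chr11:101552149-101581951, plus strand), the receptor that works with p62 and also delivers peroxisomes, had 9.89, 16.8, 13.7, 15.8 and 9.15 FPKM in AngII+QDG. It had 18.4, 12.3, 15, 17.4 and 12.8 FPKM in AngII, against 11.7, 5.38, 8.36, 17.7 and 1.3 FPKM in Control. Control was the widest group, with a coefficient of variation of 70.2% against 31.0% for the median tested gene there, and its library 4 lay within the AngII range while library 5 was the lowest of all 15. The log2 fold change was 1.00 ± 0.42 in AngII against Control (limma adjusted p = 0.117) and 0.78 ± 0.42 in AngII+QDG against Control (limma adjusted p = 0.203). Without Control 4 the first of these passed, with an adjusted p of 0.0303. The gene has 6 listed transcripts, of which Nbr1-206 and Nbr1-207 were not listed in the AngII+QDG files. Nbr1-206 was at 0 or at 6.62 to 10.8 FPKM in the AngII and Control libraries, and Nbr1-202 carried 80.1 ± 7.34% of the gene's FPKM in AngII+QDG, 35.4 ± 24.3% in AngII and 48.3 ± 39.2% in Control. Over transcripts listed in all files alone, the log2 fold change of Nbr1 in AngII+QDG against AngII was 0.52, against -0.22 over all listed transcripts, and it did not pass in either. The same change of transcripts gave 1.21 in AngII+QDG against Control (adjusted p = 0.0731) and 0.69 in AngII against Control (0.299). Over all listed transcripts but without Control 3 and Control 5, the log2 fold change was 0.26 in AngII+QDG against Control. In AngII against Control it was 0.47. With all libraries these were the 0.78 and 1.00 given above.

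**Figure D3:**
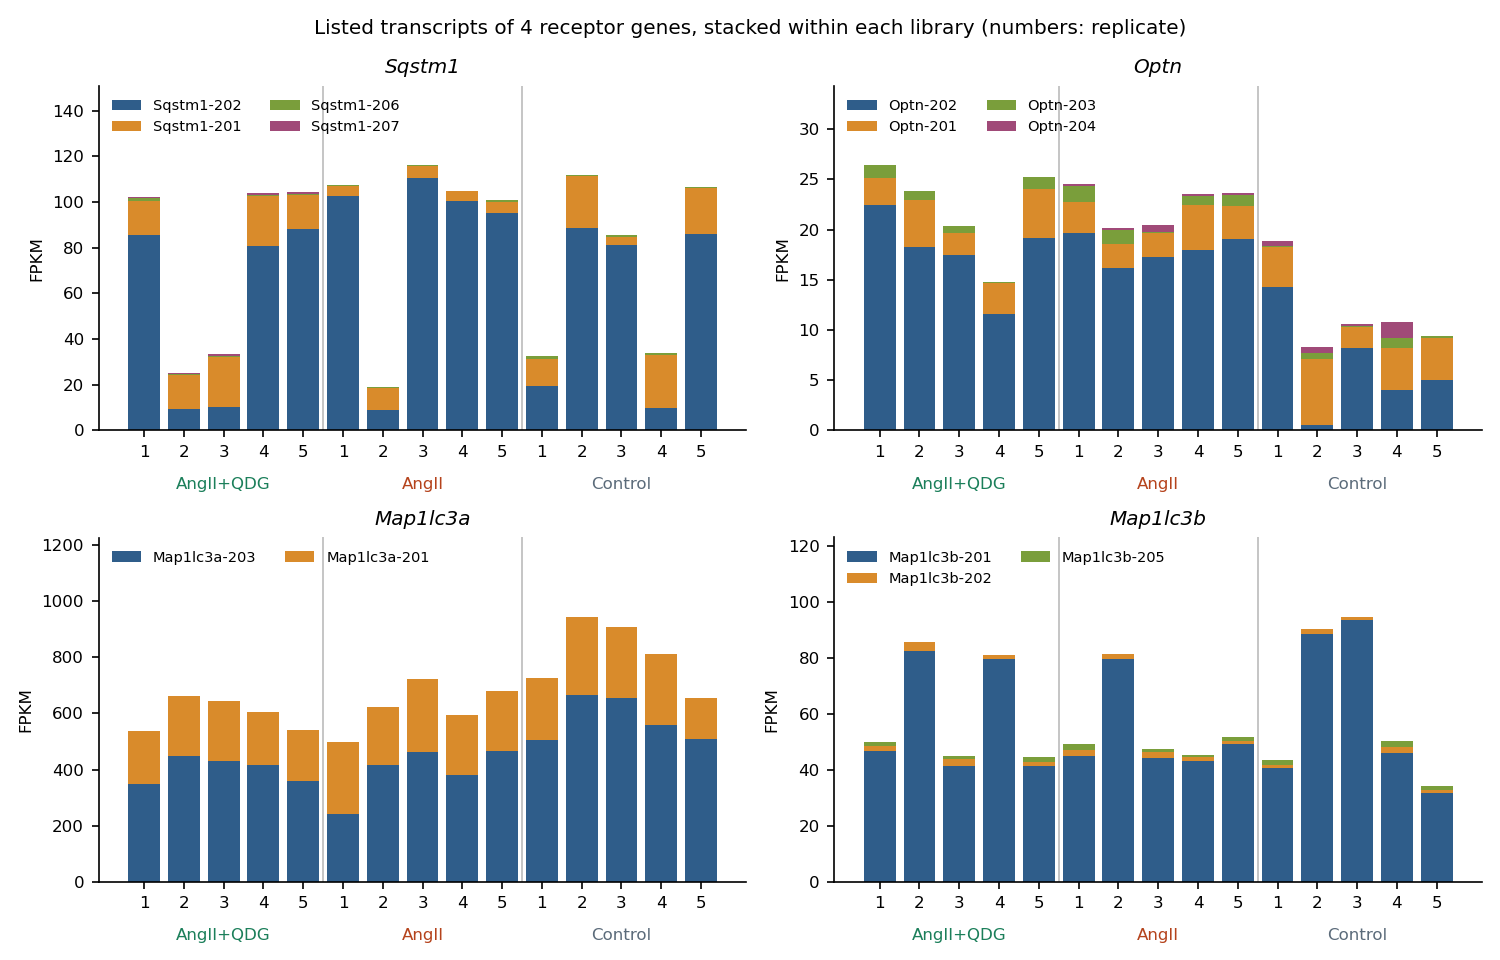
FPKM of the listed transcripts of Sqstm1, Optn, Map1lc3a and Map1lc3b, stacked within each library, with AngII+QDG, AngII and Control from left to right and replicate numbers below. Sqstm1-202 was at 9.11 to 19.3 FPKM in 5 libraries spread over the 3 groups, Optn-202 was at 0.582 to 14.3 FPKM in Control, and Map1lc3a-203 made up most of Map1lc3a in nearly every library.

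Bnip3 (ENSMUSG00000078566, chr7:138890836-138909519, minus strand), a hypoxia-induced mitophagy receptor, had 127, 85.7, 71.6, 93.8 and 93.8 FPKM in AngII+QDG. It had 105, 109, 105, 108 and 107 FPKM in AngII, against 73.7, 69.5, 41.9, 96.4 and 129 FPKM in Control. The AngII libraries were almost level, with a coefficient of variation of 1.76%, below which lay 0.0734% of tested genes in that group, while the Control values ran from below to above them. The log2 fold change was 0.47 ± 0.23 in AngII against Control (limma adjusted p = 0.173), -0.20 ± 0.23 in AngII+QDG against AngII (0.998) and 0.27 ± 0.23 in AngII+QDG against Control (0.435). With estimated sample weights the first passed (adjusted p = 0.0457). Of the 50-mers of Bnip3 transcripts, 18.7% also occur in 4 other annotated genes, among them the pseudogene Gm6532 with at most 1.13 FPKM, so the level of Bnip3 is uncertain to the extent that reads were shared.

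The 250 bases before the RefSeq start of Bnip3 (chr7:138909507-138909756, minus strand, GRCm38.p6) are shown because they held the only CACGTG among the 8 members with a RefSeq promoter here; Map1lc3a and Bnip3l are named only. The E-box lies 108 to 103 bases before the start, in capitals, and contains ACGTG on both strands.
Bnip3 promoter: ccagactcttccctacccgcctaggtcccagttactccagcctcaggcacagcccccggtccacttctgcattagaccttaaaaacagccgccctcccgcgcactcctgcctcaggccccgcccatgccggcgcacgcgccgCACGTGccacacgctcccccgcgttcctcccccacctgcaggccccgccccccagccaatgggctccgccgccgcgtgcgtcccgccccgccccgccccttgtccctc

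Bnip3l (ENSMUSG00000022051, chr14:66985239-67008877, minus strand) encodes NIX, the relative of BNIP3 best known for clearing mitochondria from maturing red cells. It was among the steadiest members, at 13.3 to 16.1 FPKM in AngII+QDG, 13.9 to 15.3 FPKM in AngII and 10.7 to 15.9 FPKM in Control. Group means were 15 ± 1.17 FPKM in AngII+QDG, 14.4 ± 0.59 in AngII and 13.1 ± 1.92 in Control, and the groups overlapped. Bnip3l had log2 fold changes of 0.14 ± 0.10 in AngII against Control (limma adjusted p = 0.371), 0.05 ± 0.10 in AngII+QDG against AngII (0.998) and 0.19 ± 0.10 in AngII+QDG against Control (0.222). The pseudogene Bnip3l-ps, with which 24.4% of the 50-mers of Bnip3l are shared, was listed at 2.84 to 6.02 FPKM.

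The balance between the 2 BNIP3-type receptors, as log2 of Bnip3l over Bnip3 in each library, was -3.10, -2.55, -2.43, -2.54 and -2.55 in AngII+QDG, and -2.89, -2.89, -2.91, -2.94 and -2.80 in AngII. AngII+QDG 1 lay below all AngII libraries and the other 4 lay above them. The means were -2.63 ± 0.26 in AngII+QDG and -2.89 ± 0.05 in AngII, a difference of 0.25 (exact permutation test, two-sided, p = 0.0476; adjusted p = 0.429 over 9 ratio tests). The ratios of Map1lc3a to Map1lc3b and of Tax1bp1 to Sqstm1 did not pass either in any pair of groups, with exact permutation adjusted p of 0.536 in each of the 6 tests.

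Pink1 (ENSMUSG00000028756, chr4:138313409-138326307, minus strand) was the second most abundant member by FPKM summed over transcripts. It had 257, 317, 281, 282 and 279 FPKM in AngII+QDG, 286, 281, 288, 249 and 244 FPKM in AngII, and 278, 312, 327, 354 and 233 FPKM in Control. The ranges overlapped in every pair of groups, and Control held both the highest and the lowest value. Pink1 had log2 fold changes of -0.15 ± 0.11 in AngII against Control (limma adjusted p = 0.373), 0.07 ± 0.11 in AngII+QDG against AngII (0.998) and -0.08 ± 0.11 in AngII+QDG against Control (0.663). After median scaling, which lowers all log2 fold changes against Control, both comparisons with Control passed (log2 fold changes -0.40 and -0.34, adjusted p = 0.0336 and 0.0359). Pink1-201 carried at least 99.47% of the gene's FPKM in every library.

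Map1lc3a (ENSMUSG00000027602, chr2:155276297-155278073, plus strand), the LC3A form of the lipid-anchored ATG8 protein, was the member that fell against Control in AngII+QDG hearts. It had 539, 661, 645, 606 and 540.3 FPKM in AngII+QDG, 497, 624, 721, 594 and 681 FPKM in AngII, and 727, 944, 908, 812 and 654 FPKM in Control. Control 5, at 654 FPKM, lay inside the ranges of both treated groups and the other Control libraries lay above them. Means were 598.1 ± 57.3 FPKM in AngII+QDG, 624 ± 86.2 in AngII and 809 ± 121 in Control (SD, n = 5 each).

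On the log2(FPKM + 1) scale Map1lc3a fell by 0.43 ± 0.12 in AngII+QDG against Control (fold 0.744, limma adjusted p = 0.0249), and it differed by -0.37 ± 0.12 in AngII against Control (limma adjusted p = 0.0540) and by -0.05 ± 0.12 in AngII+QDG against AngII (0.998). None of the 10 genes kept AngII+QDG and Control libraries wholly apart, against 14.5% of all tested genes. The AngII+QDG call was lost with quantile normalization (log2 fold change -0.22, adjusted p = 0.178), after adjustment for the short-transcript balance (adjusted p = 0.726), with protein-coding transcripts alone (log2 fold change -0.19, adjusted p = 0.394), and without AngII+QDG 1, AngII+QDG 5, Control 2 or Control 3 (adjusted p = 0.0655, 0.0608, 0.0598 and 0.0590). With median scaling the log2 fold changes against Control were -0.69 in AngII+QDG and -0.63 in AngII, and the second then passed as well (adjusted p = 0.0176). The AngII comparison also passed with estimated sample weights (adjusted p = 0.0265) and without AngII 3 or Control 5 (0.0418 and 0.0400).

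The largest listed transcript share was that of Map1lc3a-203 (826 nt), annotated as a processed transcript with no reading frame, with 66.8 ± 1.47% of the gene's FPKM in AngII+QDG, 62.4 ± 7.73% in AngII and 71.7 ± 3.54% in Control. It had 348, 448, 429, 415 and 359 FPKM in AngII+QDG, 243, 415, 462, 381 and 467 FPKM in AngII, and 504, 666, 654, 559 and 508 FPKM in Control. Every Control library was above every treated library. The share of all transcripts with such a gap was not counted. Among tested genes the libraries did not overlap for 11.1% in AngII against Control and for 14.5% in AngII+QDG against Control. At the transcript level its log2 fold change was -0.58 ± 0.16 in AngII against Control (limma adjusted p = 0.0588) and -0.53 ± 0.16 in AngII+QDG against Control (limma adjusted p = 0.0550), so neither passed. The coding Map1lc3a-201 (1112 nt) had log2 fold changes of 0.02 ± 0.15 (limma adjusted p = 0.947) and -0.19 ± 0.15 (0.454), and the setting with protein-coding transcripts alone, added after the data were seen, gave no call for Map1lc3a in either comparison. The transcripts share 757 nt, and how reads were divided between them bears on their shares and on these transcript values. After the trend with length was taken out of every library, the log2 fold change of the gene was -0.36 in AngII+QDG against Control (adjusted p = 0.0248) and -0.35 in AngII against Control (0.0523).

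The transcripts share 757 nt, and Map1lc3a-203 differs by a first exon stretch of 69 bases (chr2:155276889-155276957, plus strand), which lies in the first intron of Map1lc3a-201. It is shown because it holds the exon bases of the more abundant transcript that the coding one lacks.
Map1lc3a-203, own bases: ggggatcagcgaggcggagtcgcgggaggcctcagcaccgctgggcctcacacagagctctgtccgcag

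Map1lc3b (ENSMUSG00000031812, chr8:121590361-121598760, plus strand), the LC3B form used as the standard autophagosome marker, had 49.8, 85.5, 44.8, 80.9 and 44.5 FPKM in AngII+QDG. It had 49.3, 81.3, 47.6, 45.2 and 51.7 FPKM in AngII, and 43.5, 90.2, 94.6, 50.4 and 34.3 FPKM in Control. As for Sqstm1, each group held high and low libraries, here 5 at 80.9 FPKM or above and 10 at 51.7 FPKM or below. The 5 high libraries were those in which Map1lc3b-205, a coding transcript with no exon base of its own, was listed at 0. No difference passed, with log2 fold changes of -0.11 ± 0.29 in AngII against Control (limma adjusted p = 0.830), 0.12 ± 0.29 in AngII+QDG against AngII (0.998) and 0.02 ± 0.29 in AngII+QDG against Control (0.971). Copies of its sequence are frequent: 8.75% of its 50-mers occur in 183 other annotated genes, among them the pseudogene Gm6055, listed at 22.2 to 38.9 FPKM.

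Gabarapl1 (ENSMUSG00000030161, chr6:129533160-129542346, plus strand), a GABARAP-type ATG8 protein and a known target of FoxO factors, had 51.9, 71.6, 62.5, 53.0 and 70.8 FPKM in AngII+QDG. It had 48.5, 49.2, 58.4, 48.1 and 46.0 FPKM in AngII, and 52.5, 52.2, 57.5, 58.0 and 36.2 FPKM in Control. The AngII+QDG libraries were above 4 of the 5 AngII libraries, and AngII 3 lay among them. Its log2 fold change was 0.29 ± 0.14 in AngII+QDG against AngII (unadjusted p = 0.0479, limma adjusted p = 0.998), 0.27 ± 0.14 in AngII+QDG against Control (0.172) and -0.02 ± 0.14 in AngII against Control (0.932). Its single listed transcript shares no 50-mer with another gene.

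Strand use was not given in the sources used here, and 7 of the 10 genes overlap another annotated gene. Where such a neighbour was listed its level was low: Mrnip, on the other strand of Sqstm1, reached at most 2.14 FPKM, Zcchc14, on the other strand of Map1lc3b, 5.50 FPKM, and 1700101I11Rik, on the other strand of Gabarapl1, 1.90 FPKM.

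The genes whose pattern over the 15 libraries was most like that of Optn, by root mean square distance of standardized log2 values among 5091 named genes averaging 5 FPKM or more, were Hnrnpk (0.46), Kpna3 (0.50) and Golga2 (0.52), against a median distance of 1.24. For Tax1bp1 they were Rabggtb (0.84), Ncaph2 (0.85) and Iqcc (0.87), against a median of 1.47. The 15 libraries behind these distances share the composition difference described above.

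Beyond the 10 genes, 107 genes of the autophagy machinery were set in 12 lists, of which 103 were measured and tested; Atg2b, Atg7, Nlrx1 and Atp6v1h were not analysed here. In AngII hearts 11 of the 103 rose against Control and 0 fell, 10.7% where 13.4% of all tested genes were called, and the median log2 fold change was 0.29 over the lists against 0.20 over all genes. Without Control 3 and Control 5, an alternative added for these lists after the data were seen, 1 of the 103 was called, and 0 after adjustment for the short-transcript balance. In AngII+QDG hearts 22 rose and 4 fell against Control, 25.2% where 19.4% of all tested genes were called, with a median of 0.27 against 0.18, and 12 were called without Control 3 and Control 5. With quantile normalization 9 were called higher and 7 lower in AngII+QDG hearts and 2 higher and 3 lower in AngII hearts; with median scaling 6 were higher and 13 lower with AngII+QDG, and 3 were higher and 3 lower with AngII. Each of the 11 and 26 genes kept its direction under both scalings, and 2 and 11 of them also kept their call with quantile normalization and 3 and 10 with median scaling. Atg4a and Tomm70a were called under both scalings in each comparison with Control. In AngII+QDG so were Sesn1, Foxo3, Prkaa2 and Fundc1, which rose, and Fkbp8, Pik3r4 and Tomm7, which fell. In AngII 8 of the 11 genes and in AngII+QDG 14 of the 26 were called under neither scaling, and these are marked in the accounts of the lists below. Between AngII+QDG and AngII 0 of 103 were called, with a median of -0.03 against -0.02 over all genes.

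**Figure D4:**
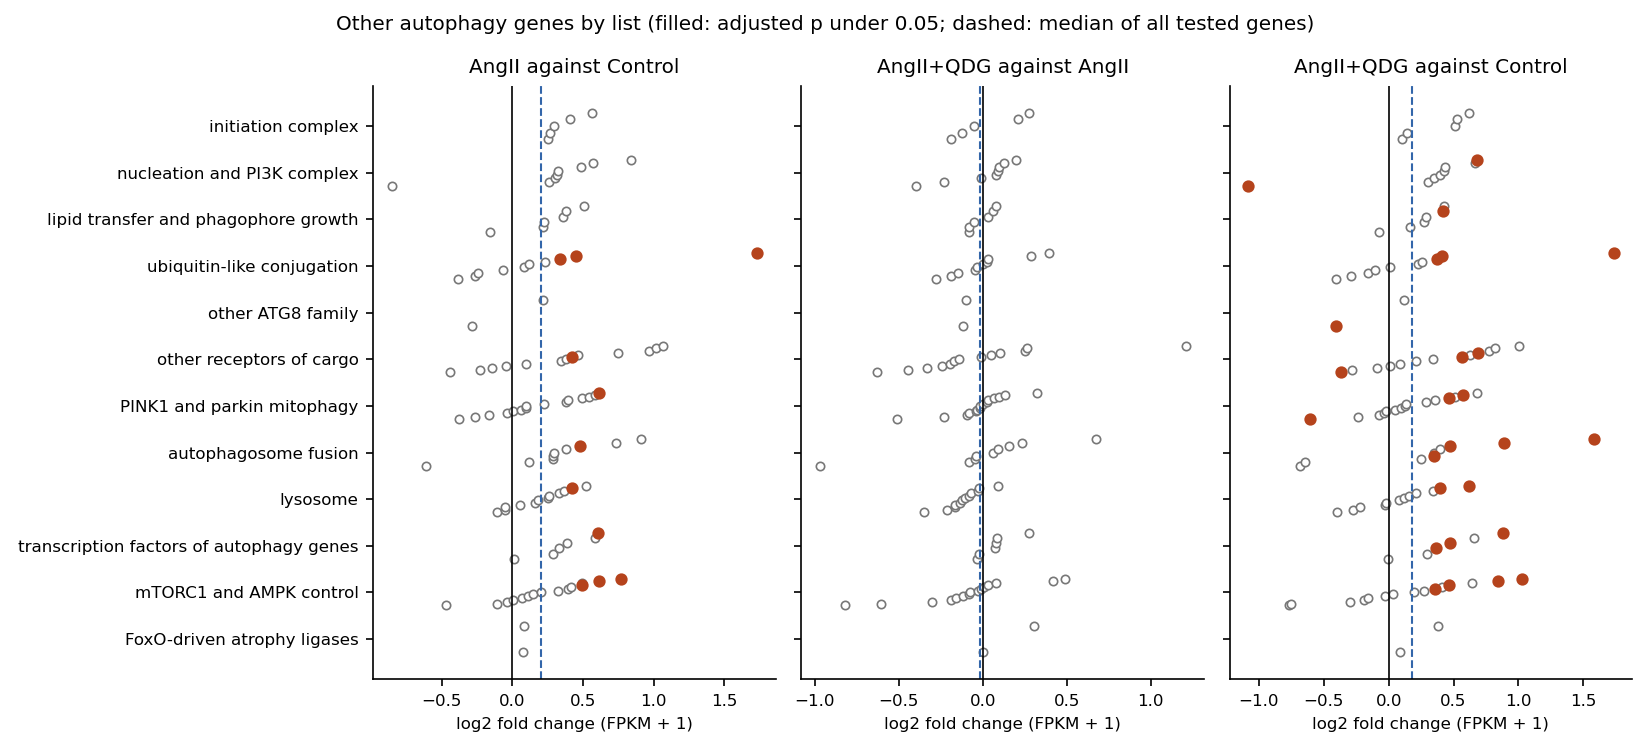
Log2 fold change of each tested gene of the 12 autophagy lists in the 3 comparisons, with genes past an adjusted p under 0.05 filled and the median of all tested genes dashed. The filled points number 11 in AngII against Control, 0 in AngII+QDG against AngII and 26 in AngII+QDG against Control.

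Among the control genes above autophagy, the 15 genes of mTORC1 and AMPK control held 4 that rose in AngII+QDG (26.7%, where 19.4% of all tested genes were called) and 3 in AngII (20%, where 13.4% were) against Control, and none fell. The counts in the other lists stand against the same shares over all tested genes. Sesn1, a sestrin that restrains mTORC1 when leucine is scarce, averaged 50.8 ± 7.57 FPKM in AngII+QDG, 37.7 ± 4.45 in AngII and 24.6 ± 4.86 in Control (SD, n = 5 each). It rose by 1.03 ± 0.14 in AngII+QDG against Control (limma adjusted p = 0.00139) and by 0.61 ± 0.14 in AngII against Control (0.0195; not called under either scaling), and its log2 fold change between AngII+QDG and AngII was 0.42 ± 0.14 (unadjusted p = 0.00826, limma adjusted p = 0.769). The AMPK catalytic subunits Prkaa2 (log2 fold change 0.85 in AngII+QDG and 0.77 in AngII) and Prkaa1 (0.46 and 0.49) rose in both, and Rragc, a Rag GTPase of the lysosome surface, in AngII+QDG (0.36, limma adjusted p = 0.0481). Under either scaling Prkaa1 and Rragc were not called. The AngII call of Prkaa2 was lost with quantile normalization (limma adjusted p = 0.0521) and without Control 3 and Control 5 (0.101). Of 6 transcription factors of autophagy genes, Foxo3 rose by 0.88 ± 0.15 in AngII+QDG (limma adjusted p = 0.00364) and by 0.61 ± 0.15 in AngII (0.0265), and Foxo1 and Mitf rose in AngII+QDG (0.37 and 0.47). Neither scaling kept the calls of Foxo1, Mitf or, in AngII, Foxo3. The FoxO-driven ligases Trim63 and Fbxo32 did not pass in either comparison; Fbxo32 averaged 10.4 ± 1.76 FPKM in AngII+QDG, 8.25 ± 1.93 in AngII and 7.81 ± 2.0 in Control.

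Of the machinery that builds the autophagosome, none of 5 genes of the initiation complex passed, with Ulk1 the nearest in AngII (log2 fold change 0.56 ± 0.22, limma adjusted p = 0.0961). In the PI3K complex of 8 genes, Becn1 rose and Pik3r4 fell in AngII+QDG against Control (0.68 ± 0.22 and -1.08 ± 0.32, limma adjusted p = 0.0402 and 0.0282), and none passed in AngII. Wipi1, a lipid-binding protein of the growing membrane, was the 1 of 6 genes of lipid transfer that rose, in AngII+QDG (0.42 ± 0.14, limma adjusted p = 0.0450). Becn1 and Wipi1 lost their calls under both scalings. Pik3r4 kept its call under both but not without Control 3 and Control 5 (limma adjusted p = 0.0785). In the ubiquitin-like conjugation system of 10 genes, Atg4a, Atg3 and Atg12 rose in both treated groups and the other 7 did not pass; Atg3 and Atg12 were called under neither scaling. Atg4a, a protease that trims ATG8 proteins, averaged 3.85 ± 0.87 FPKM in AngII+QDG, 3.80 ± 0.38 in AngII and 0.65 ± 1.07 in Control, with a log2 fold change of 1.73 ± 0.29 in both comparisons (limma adjusted p = 0.00304 and 0.00801). Gabarap, another ATG8 protein, fell by 0.41 ± 0.12 in AngII+QDG against Control (limma adjusted p = 0.0281) and had a log2 fold change of -0.29 ± 0.12 in AngII (0.112). The AngII+QDG call of Gabarap was kept with median scaling (log2 fold change -0.67). It was lost with quantile normalization (-0.32) and without Control 3 and Control 5 (-0.23, limma adjusted p = 0.148).

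Among 13 other cargo receptors, Fundc1, a hypoxia-linked mitophagy receptor, averaged 10.4 ± 1.08 FPKM in AngII+QDG, 8.47 ± 1.04 in AngII and 6.06 ± 0.73 in Control, and rose by 0.69 ± 0.11 in AngII+QDG and by 0.42 ± 0.11 in AngII (limma adjusted p = 0.00287 and 0.0304, the second lost under both scalings). In AngII+QDG Tollip also rose (0.56 ± 0.18, limma adjusted p = 0.0395), and Fkbp8, an LC3A-binding mitophagy receptor, fell by 0.37 ± 0.09 (0.0129). Tollip was not called with median scaling (limma adjusted p = 0.0716) or without Control 3 and Control 5 (0.121). In the PINK1 and parkin list of 15 genes, Tomm70a, an import receptor of the outer membrane, rose in AngII+QDG (0.57 ± 0.12, limma adjusted p = 0.00677) and in AngII (0.61 ± 0.12, 0.0131). The AngII call of Tomm70a was lost without Control 3 and Control 5 (limma adjusted p = 0.0525). Pgam5 rose and Tomm7 fell in AngII+QDG (0.46 ± 0.16 and -0.61 ± 0.20, limma adjusted p = 0.0491 and 0.0480). Without Control 3 and Control 5 neither was called (limma adjusted p = 0.126 and 0.172). With median scaling Pgam5 was not called (0.138). Of 9 fusion genes, Snap29 rose in AngII (0.48 ± 0.14, limma adjusted p = 0.0447), and Vps41, Stx17, Epg5 and Vps33a passed in AngII+QDG (0.89, 1.58, 0.35 and 0.47). All 5 fusion genes lost their calls under both scalings, with Epg5 at 0.12 and 0.088 and Vps33a at 0.23 and 0.21 in AngII+QDG with quantile normalization and median scaling. Of 12 lysosome genes, Lamp2 rose in both (0.40 in AngII+QDG and 0.42 in AngII) and the proton pump subunit Atp6v1a in AngII+QDG (0.62 ± 0.17, limma adjusted p = 0.0216), and neither gene was called under either scaling.

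Between AngII+QDG and AngII, the genes with the smallest unadjusted p in their lists were values without a call. Retreg1, a receptor for the endoplasmic reticulum, averaged 66.5 ± 6.44 FPKM in AngII+QDG and 36.3 ± 22.9 in AngII (log2 fold change 1.21 ± 0.44, limma adjusted p = 0.894). Rab7, the GTPase of late endosomes, averaged 83.5 ± 50.8 FPKM in AngII+QDG and 134 ± 4.82 in AngII (-0.97 ± 0.39, limma adjusted p = 0.967). Ctsd, the lysosomal protease cathepsin D, averaged 429.7 ± 95.4 FPKM in AngII+QDG and 534 ± 23.3 in AngII, with no overlap of libraries (-0.35 ± 0.16, limma adjusted p = 0.998). Libraries of these groups did not overlap for 1.39% of all tested genes. In the remaining lists this gene was Sesn1 (described above), Foxo3 (0.28), Fbxo32 (0.31), Usp30 (0.33), Ulk2 (0.28), Ambra1 (-0.40), Atg4c (-0.28), Gabarap (-0.12) and Wdr45b (-0.08), and each of these had a limma adjusted p of 0.769 or above.

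**Figure D5:**
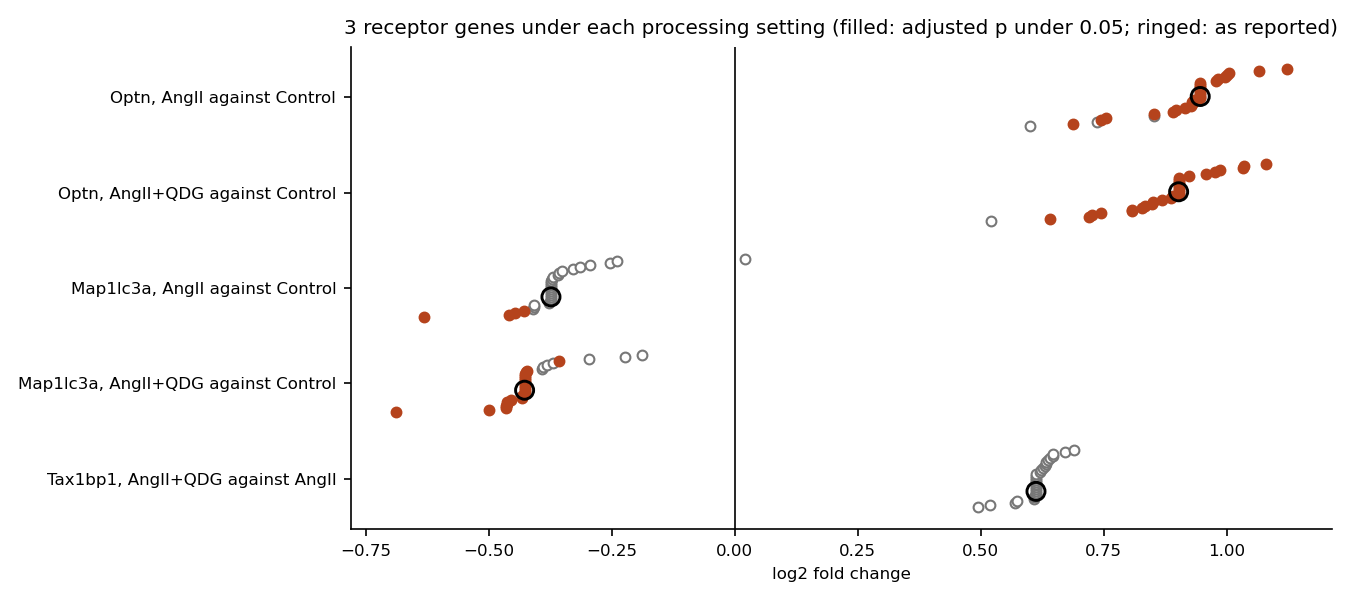
Log2 fold change of Optn, Map1lc3a and Tax1bp1 as reported (ringed) and under 29 alternative settings, filled where the adjusted p was under 0.05. Optn stayed positive in all of them and was called in 26 of 29 for AngII against Control and 28 of 29 for AngII+QDG against Control, Map1lc3a was called in 4 and 22 of 29, and Tax1bp1 in AngII+QDG against AngII in 0 of 29.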

How the data were processed

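Heart RNA depleted of ribosomal RNA was sequenced in 15 libraries, and the deposited value is 1 number per transcript, taken as FPKM made by the authors, since the values of each file step in units set by transcript length and depth. The submitters' processing notes name GRCm38 and limma; for the aligner, the quantifier and the use of strand nothing was stated. The files list 31734 transcripts in AngII+QDG and 31685 in AngII and in Control, and 24756 Ensembl transcripts were given gene names from GENCODE M21 and summed to 12391 genes; 8634 assembled transcripts without an Ensembl name were left out. Groups follow the sample titles. Whether libraries of a group are separate mice rests on the design text, so p-values measure the spread between these libraries.

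Log2(FPKM + 1), which understates the changes of low genes, was fitted with limma 3.58.1 (R 4.3.3, trend and robust) over all 15 libraries after a filter of 0.5 FPKM in 5 libraries, with Benjamini-Hochberg adjusted p under 0.05 as the call. Fragments recovered from the steps were whole, within 0.1, for 97.0 to 97.3% of values. Ratios and library measures were compared with exact permutation tests. The fit was tested on simulated data, with independent normal values and the same SD of a gene in every group. These data held no composition difference between groups, so they cannot show how it affects the calls. Alternatives changed the pseudocount (0.1 or 5 FPKM), filter, scaling, fit, length correction and libraries. The members and lists were chosen with earlier results of these data known, and the named genes are the 10 members, every called gene of the lists, and the gene of smallest p in a list without one. Promoters and the Map1lc3a exon are from RefSeq (GRCm38.p6; 8 of 10 members matched) and GENCODE.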

Additional observations from a re-analysis of the deposited data

Results flagged for a closer look

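In 7 of 48 groups of 5 values checked, 1 library lay far from the rest relative to the range of its group; chance gives this in about 1 in 20 groups. Tax1bp1 was lowest in AngII 1, at 9.71 FPKM. Sqstm1 was low in AngII 2, at 19.1 FPKM, and log2 of Tax1bp1 over Sqstm1 was high there, at -0.47. In the same library Map1lc3b was high, at 81.3 FPKM. Gabarapl1 was high in AngII 3, at 58.4 FPKM, and low in Control 5, at 36.2 FPKM, the library with the largest share of transcripts listed at 0. Log2 of Bnip3l over Bnip3 was low in AngII+QDG 1, at -3.10. Whether the mice of these libraries differed was not tested.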

How the results depend on the processing

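Of 29 alternatives for each result (18 for ratios), Optn kept its direction against Control in all of them, and Tax1bp1 kept its direction and missed the threshold in AngII+QDG against AngII. In AngII against Control 1638 genes were called as reported (1457 higher, 181 lower), 819 with quantile normalization (406 higher, 413 lower), 1076 with median scaling (361 higher, 715 lower), 317 in a fit of the 2 groups alone, 516 with a replicate block, 342 with the length trend removed, 97 without Control 3 and Control 5, 0 with the short-transcript balance as covariate, and 316 (without AngII 2) to 2484 (without Control 4) leaving out 1 library. In AngII+QDG against Control 2374 were called, 1438 in a fit of the 2 groups alone, 1308 with the length trend removed, 1199 without Control 3 and Control 5, 0 with the covariate and 1452 to 3022 leaving out 1 library; the split was 983 higher and 999 lower with quantile normalization and 791 and 1625 with median scaling. In AngII+QDG against AngII, 0 were called, 1 with a pseudocount of 0.1 FPKM, sample weights, the covariate or voom, and 0 to 1 leaving out 1 library. Members called in AngII against Control numbered 1, 3 with median scaling or sample weights, 0 with the covariate, the length trend removed or Control 3 and Control 5 left out, and 1 to 2 leaving out 1 library; in AngII+QDG against Control 2, 1 with quantile normalization or protein-coding transcripts, 0 with the covariate and 1 to 2 leaving out 1 library, with median scaling giving 3.

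The direction turned for differences that had not passed. In AngII against Control these were Bnip3l (-0.050 with quantile normalization, -0.12 with median scaling, -0.14 with the length trend removed), Sqstm1 (-0.026 with median scaling; -0.0094 to 0.72 leaving out 1 library), Map1lc3b (0.12 with the covariate; -0.29 to 0.070), Map1lc3a (0.022 with protein-coding transcripts) and Gabarapl1 (-0.14 to 0.028). In AngII+QDG against AngII these were Map1lc3a (0.016 with quantile normalization; -0.13 to 0.0018), Nbr1 (0.52 with transcripts listed in all files), Sqstm1 (-0.77 to 0.033), Optn (-0.11 to 0.087) and Map1lc3b (-0.010 to 0.27). In AngII+QDG against Control these were Pink1 (0.047 with quantile normalization), Bnip3l (-0.074 with median scaling, -0.071 with the length trend removed), Map1lc3b (-0.24 with median scaling, -0.081 with sample weights, -0.30 with the length trend removed; -0.17 to 0.19), Sqstm1 (0.90 with the covariate, 0.32 without Control 3 and Control 5; -0.30 to 0.27), Nbr1 (-0.18 with the covariate) and Bnip3 (-0.18 with the covariate). The log2 ratio of Map1lc3a to Map1lc3b in AngII against Control was 0.14 with protein-coding transcripts, and that of Bnip3l to Bnip3 in AngII+QDG against Control was 0.080 without Control 3 and Control 5 and -0.25 to 0.22 leaving out 1 library. The cause of these shifts was not tested.

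Replicate numbers did not pair libraries, with correlations of same-numbered deviations between -0.096 and 0.087. With the replicate block, calls of the members were unchanged. The covariate is nearly a group term, so its fits leave little to test with. Depth in fragments is an estimate, and a low FPKM of a long transcript rests on more fragments than one of a short transcript.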
